A study of Mus musculus with 9 samples.

Results

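Egr2, Egr3, Junb, Fosl2 and Nr4a3 encode transcription factors of the immediate early class, and their RNA was followed in the hearts of 14-day-old mice that carried 1 of 2 transgenes or none. The genes were taken from a given list, and their probes were found through the mouse NCBI gene number held in the array's probe codes. They have 7 probes for 5 genes, out of 9796 probes that could be named for 8102 genes and 46657 probes in all. K-line mice carried a transgene of a mutant membrane transport protein that is constitutively active, N-line mice carried a transgene of the normal form of that protein, and control mice are described by the labels as controls only. Each group had 3 arrays, numbered 3, 5 and 6 in K-line, 2, 3 and 4 in N-line, and 1, 2 and 3 in control. All mice were of the FVB strain and were labelled male. The promoter that drives the transgenes, the number of founders behind each line and whether each array holds 1 animal are not given in the sources used here.

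Immediate early genes are switched on within minutes of a growth factor, calcium or stress signal, because the proteins that activate them are already present in the cell. Kinases downstream of growth factor receptors phosphorylate ternary complex factors that sit with serum response factor on CArG boxes, and CREB acts through cAMP response elements. EGR proteins are zinc finger activators held in check by the NAB corepressors. JUN and FOS family proteins pair through leucine zippers to form AP-1, and NR4A proteins are orphan nuclear receptors that act without a known hormone. In heart muscle this class of genes is known for its early response to pressure load and to hypertrophic hormones, and in leukocytes for its response to inflammatory stimuli.

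The promoter windows of Egr2, Junb, Fosl2 and Nr4a3 follow, to show the letters next to the starts of genes that differed between K-line and control hearts. They come from RefSeq on the mouse build GRCm38.p6 and run from 250 bases before to 50 bases after a transcript start, 5′ to 3′ on the gene's own strand. Capitals mark matches to the motifs searched on both strands, namely the AP-1 site TGANTCA, the cAMP response element TGACGTCA, the EGR site GCGNGGGCG, the NR4A site AAAGGTCA and the CArG box.
Egr2, chr10:67537620-67537919, plus strand: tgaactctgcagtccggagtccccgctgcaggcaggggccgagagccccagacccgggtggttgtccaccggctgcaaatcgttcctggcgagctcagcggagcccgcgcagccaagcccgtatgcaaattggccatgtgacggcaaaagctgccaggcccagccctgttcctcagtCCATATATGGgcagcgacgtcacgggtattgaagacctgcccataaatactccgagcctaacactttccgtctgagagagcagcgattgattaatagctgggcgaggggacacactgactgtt
Junb, chr8:84978699-84978998, minus strand: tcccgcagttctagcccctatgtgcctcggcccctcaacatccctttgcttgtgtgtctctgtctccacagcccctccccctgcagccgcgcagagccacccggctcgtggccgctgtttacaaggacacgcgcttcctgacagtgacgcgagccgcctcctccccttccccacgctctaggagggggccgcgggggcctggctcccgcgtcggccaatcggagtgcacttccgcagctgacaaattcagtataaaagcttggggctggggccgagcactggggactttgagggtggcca
Fosl2, chr5:32136222-32136521, plus strand: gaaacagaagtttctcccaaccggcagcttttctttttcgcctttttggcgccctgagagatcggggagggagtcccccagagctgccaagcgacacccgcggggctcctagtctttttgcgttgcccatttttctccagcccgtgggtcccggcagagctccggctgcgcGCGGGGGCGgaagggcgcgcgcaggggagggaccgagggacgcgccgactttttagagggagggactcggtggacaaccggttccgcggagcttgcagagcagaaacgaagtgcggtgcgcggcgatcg
Nr4a3, chr4:48045055-48045354, plus strand: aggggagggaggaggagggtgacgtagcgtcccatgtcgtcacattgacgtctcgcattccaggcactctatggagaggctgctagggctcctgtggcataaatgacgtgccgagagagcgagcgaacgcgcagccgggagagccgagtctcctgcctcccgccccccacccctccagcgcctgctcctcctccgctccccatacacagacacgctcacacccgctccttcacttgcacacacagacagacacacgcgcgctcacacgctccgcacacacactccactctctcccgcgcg

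The Egr2 window held a CArG box that begins at position -73 from the start. RefSeq lists 5 starts for Egr2, and 4 of the 5 windows held a CArG box, of which 3 windows overlap and share the box shown. CArG boxes were found in 1.63% of the 32851 promoter windows of the table. The Fosl2 window held an EGR site at position -79, a motif found in 5.55% of windows. The Junb and Nr4a3 windows had 0 matches to these letters and a GC content of 65.3% and 64.7%. The letters TGANTCA, found in 7.81% of all windows, TGACGTCA (1.79%) and AAAGGTCA (1.51%) were in none of the 4 windows shown. Shorter forms were not searched, and TGACGT, a part of the cAMP response element, stands on either strand in the Egr2 and Nr4a3 windows. A match is a description of the letters and was not tested as a binding site.

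Between 17937 and 19021 probes were detected per array, which is 38.4% to 40.8% of 46657, and the median probe was read on 35 to 38 beads. The 3 K-line arrays stood apart: they correlated at 0.969 to 0.981 with the other arrays across probes, against 0.988 to 0.995 within groups and 0.989 to 0.993 between N-line and control. They were also the only arrays on their slide, so slide and line cannot be told apart in any K-line comparison of these genes. All 3 K-line arrays showed Xist RNA above background, against 0 of 3 in N-line and 0 of 3 in control, and none of the 3 K-line arrays showed the Y-linked Kdm5d, Ddx3y or Eif2s3y, although the labels call all mice male. Myl7, the atrial myosin light chain, fell by 7.28 on the log2 scale in K-line against control, and was above background on 2 of the 3 K-line arrays. Gja5, the other tested atrial marker, fell by 0.73 in K-line and rose by 0.78 in N-line against control. The Xist, Y-linked and Myl7 differences set the 3 K-line arrays apart from all others, so what lies behind them and the line cannot be told apart in the K-line comparisons either. The heart muscle genes of the labelled tissue were detected in all groups, with a summed linear level of 4 ventricular markers of 21641 to 25887 in K-line, 15777 to 17902 in N-line and 16162 to 17366 in control. Among the 4, the myosin gene Myh7 rose by 1.77 in K-line against control and the calcium release channel gene Ryr2 fell by 0.57.

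In K-line hearts 3 of the 5 factors were higher than in control (Egr2, Junb and Fosl2) and 2 were lower (Egr3 and Nr4a3), each past an adjusted p of 0.05. Over all 19692 tested probes 24.3% passed in this comparison, 12.0% higher and 12.4% lower. The K-line and control arrays did not overlap for any of the 5 genes, and 40.6% of all tested probes had groups that did not overlap. In N-line hearts 1 of the 5 passed, Nr4a3, which was lower than in control, where 0.929% of all probes passed, 0.345% higher and 0.584% lower. Against N-line, K-line hearts were higher in 2 of the 5, Egr2 and Junb, where 24.2% of all probes passed, 12.1% higher and 12.2% lower. The genes were listed with earlier results of these data known, so these counts describe the list and are not independent evidence. Nr4a3 also needed its control arrays to be bright enough for testing, which favours a lower reading in the lines.

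**Figure D1:**
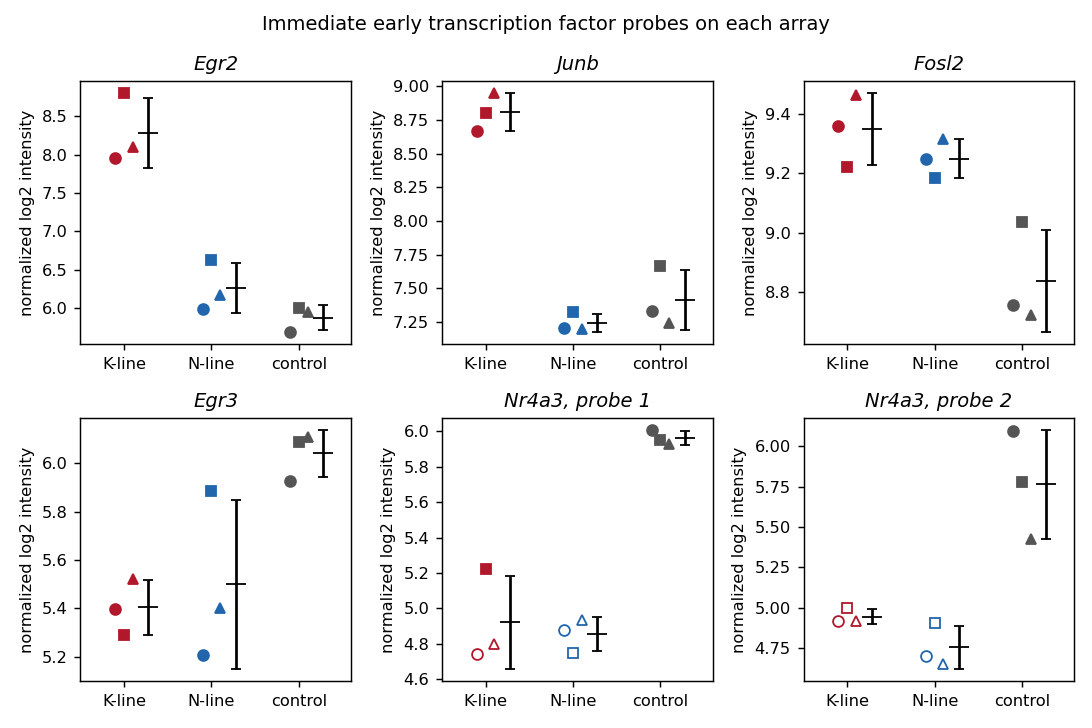
Normalized log2 intensity of each tested probe on each array, in K-line, N-line and control from left to right, with a point per array and, beside the points, the group mean ± SD. Open points are below background, and circle, square and triangle are the arrays of a group in order of number. Egr2 and Junb sit above the other groups on all 3 K-line arrays, Fosl2 is lowest in control, and Egr3 and both Nr4a3 probes are highest in control.

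Egr2, also called Krox20, is a zinc finger activator best known for hindbrain patterning and for myelination by Schwann cells, and it is also induced in activated leukocytes. Its probe (scl013654.4_67-S) read a raw intensity of 283.7, 602.4 and 315.1 on K-line arrays 3, 5 and 6, against 88.9, 120.9 and 107.5 on N-line arrays 2, 3 and 4 and 91.7, 92.5 and 87.9 on control arrays 1, 2 and 3. After background correction and quantile normalization its log2 intensity was 7.95, 8.80 and 8.10 in K-line, 5.98, 6.62 and 6.16 in N-line and 5.68, 5.997 and 5.94 in control. All 3 K-line arrays lay above the other 6, with K-line array 5 the brightest, and the N-line and control arrays overlapped. The bead-to-bead standard error of the raw signal was 10.1, 26.0 and 11.7 on the 3 K-line arrays, a measure of the reading of single arrays and not of the spread between them.

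Egr2 averaged 8.29 ± 0.46 in K-line, 6.26 ± 0.33 in N-line and 5.87 ± 0.17 in control (log2 intensity, SD, n = 3 each). It rose 5.33-fold in K-line against control, a log2 difference of 2.41 (standard error, SE, 0.22, 95% interval 1.93 to 2.90, adjusted p 4.09e-05, limma). That difference ranked 38th in size among the 19692 tested probes. It also rose 4.08-fold against N-line, by 2.03 on the log2 scale (SE 0.22, interval 1.55 to 2.51, adjusted p 1.24e-04). The N-line difference from control was 0.38 (interval -0.10 to 0.87, adjusted p 0.562), an interval that includes 0, and it lay between 0.20 and 0.53 with any 1 array left out, lowest without N-line array 3. With any 1 array left out the K-line difference from control lay between 2.14 and 2.58.

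Egr3 is the relative of Egr2 known for muscle spindle development and, in lymphocytes, for limiting activation. Its probe (scl0013655.2_49-S) was dim, with a raw intensity of 74.3, 82.1 and 78.7 in K-line, 64.6, 85.5 and 76.2 in N-line and 101.6, 96.2 and 94.7 in control. The log2 intensity was 5.40, 5.29 and 5.52 in K-line, 5.21, 5.89 and 5.40 in N-line and 5.93, 6.09 and 6.11 in control. The control arrays lay above all 6 transgenic arrays, and K-line and N-line overlapped.

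The group means of Egr3 were 5.40 ± 0.12 in K-line, 5.50 ± 0.35 in N-line and 6.04 ± 0.10 in control. It fell by 0.64 on the log2 scale in K-line against control, or 1.56-fold (SE 0.15, interval -0.98 to -0.30, adjusted p 0.0128). The call ended in the authors' own normalized values, at -0.62 with an adjusted p of 0.0801. In those values the K-line arrays have a scale of their own. The size was -0.39 with an offset of 50 in place of 16. In N-line the difference was -0.54 (interval -0.88 to -0.20) with an adjusted p of 0.147 and an unadjusted p of 0.00493. Without N-line array 3, the highest of its group, it was -0.74 with an adjusted p of 0.0342. K-line and N-line differed by -0.10 (interval -0.44 to 0.24, adjusted p 0.691), and without N-line array 3 by 0.10. Egr2 and Egr3 thus moved in opposite directions in K-line hearts against the same control arrays.

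Junb, an AP-1 subunit that pairs with FOS proteins and often restrains JUN-driven growth, had a raw intensity of 434.3, 601.9 and 536.3 in K-line, 161.4, 176.7 and 184.8 in N-line and 207.0, 219.1 and 167.6 in control (probe scl016477.1_58-S). The log2 intensity was 8.67, 8.80 and 8.95 in K-line, 7.21, 7.32 and 7.20 in N-line and 7.33, 7.66 and 7.24 in control. The K-line arrays stood clear of the rest, by more than the whole range within any group, and N-line and control overlapped. Means were 8.81 ± 0.14 in K-line, 7.24 ± 0.07 in N-line and 7.41 ± 0.22 in control.

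Junb rose 2.63-fold in K-line against control, by 1.39 on the log2 scale (SE 0.12, interval 1.12 to 1.66, adjusted p 3.44e-05). Against N-line it rose 2.96-fold, by 1.56 (SE 0.12, interval 1.29 to 1.84, adjusted p 1.46e-05). N-line differed from control by -0.17 (interval -0.44 to 0.10, adjusted p 0.679), which excludes a rise of the size seen in K-line, and it lay between -0.26 and -0.05 with any 1 array left out, nearest 0 without control array 2. The K-line difference from control stayed between 1.31 and 1.52 with any 1 array left out.

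Fosl2, which encodes the FOS family protein FRA-2 and is known for a role in fibrosis, had 2 probes. The tested probe (scl0014284.1_16-S) read a raw intensity of 674.1, 794.5 and 752.0 in K-line, 556.5, 559.7 and 674.3 in N-line and 514.4, 524.3 and 414.1 in control. In log2 intensity it was 9.36, 9.22 and 9.46 in K-line, 9.25, 9.18 and 9.32 in N-line and 8.76, 9.04 and 8.72 in control. Here the 2 transgenic lines overlapped with each other and both lay above every control array. The second probe (scl014284.4_6-S) was below background on all 9 arrays, with detection p-values from 0.642 to 0.994, and was not tested.

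Fosl2 averaged 9.35 ± 0.12 in K-line, 9.25 ± 0.07 in N-line and 8.84 ± 0.17 in control. It rose 1.42-fold in K-line against control, by 0.51 (SE 0.11, interval 0.27 to 0.75, adjusted p 0.00718). The N-line difference of 0.41 (interval 0.17 to 0.65) did not pass, with an adjusted p of 0.123 and an unadjusted p of 0.00331. K-line and N-line differed by 0.10 (interval -0.14 to 0.34, adjusted p 0.545). Groups of N-line and control arrays did not overlap for 3 of the 5 genes (Egr3, Fosl2 and Nr4a3), against 19.7% of all tested probes, and K-line and N-line arrays did not overlap for 2 of the 5 (Egr2 and Junb), against 39.5%.

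**Figure D2:**
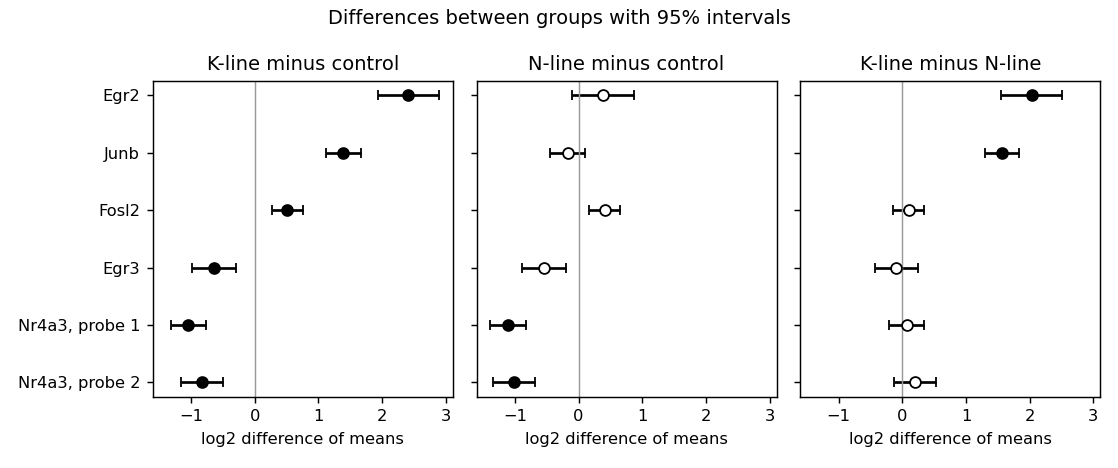
Log2 difference of group means for each tested probe, with the 95% interval of the fit, for K-line minus control, N-line minus control and K-line minus N-line, with filled points at an adjusted p under 0.05. In K-line minus control every interval lies off 0, while in K-line minus N-line those of Egr2 (1.55 to 2.51) and Junb (1.29 to 1.84) do.

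Nr4a3, also called NOR-1, is an orphan nuclear receptor known for early induction in muscle by adrenergic signals and exercise and in vascular cells by growth factors. It had 2 probes, and both fell in both transgenic lines. The brighter one (scl018124.6_23-S) had a raw intensity of 51.6, 79.4 and 56.1 in K-line, 54.3, 50.6 and 60.8 in N-line and 105.0, 90.7 and 87.5 in control. In log2 intensity it was 4.74, 5.22 and 4.80 in K-line, 4.88, 4.75 and 4.94 in N-line and 6.01, 5.95 and 5.93 in control. It was above background on all 3 control arrays, on 1 K-line array (array 5) and on 0 of 3 N-line arrays.

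The brighter Nr4a3 probe averaged 4.92 ± 0.26 in K-line, 4.85 ± 0.10 in N-line and 5.96 ± 0.04 in control. It fell by 1.04 on the log2 scale in K-line against control, or 2.06-fold (SE 0.13, interval -1.32 to -0.76, adjusted p 2.55e-04). In N-line it fell by 1.11 (SE 0.13, interval -1.39 to -0.83, adjusted p 0.00361), which is at least 1.82-fold, because it was not above background there. This bound sets the dim arrays at the lowest signal of a detected probe where that is higher than the probe's own. With an offset of 50 the differences were -0.58 in K-line and -0.61 in N-line, so the size of a fall this close to background depends on the offset.

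The second Nr4a3 probe (scl0018124.1_16-S) had a raw intensity of 58.5, 69.8 and 60.2 in K-line, 47.6, 56.2 and 48.8 in N-line and 109.2, 84.6 and 71.6 in control. Its log2 intensity was 4.92, 4.996 and 4.92 in K-line, 4.70, 4.90 and 4.65 in N-line and 6.10, 5.78 and 5.42 in control, above background on the control arrays alone. As for the brighter probe, no transgenic array reached the lowest control array. It fell by 0.82 in K-line (SE 0.15, adjusted p 0.00296) and fell by 1.01 in N-line (SE 0.15, adjusted p 0.0130), at least 1.59-fold in each. This probe entered the test through its 3 control arrays alone, so it had to be lower elsewhere and is no separate support for the brighter probe. The brighter probe also needed its control arrays to enter, with only K-line array 5 above background besides them. Its lower reading in N-line was favoured by that choice as well, so its N-line call is not free of it. Without N-line array 2 or 4 the N-line call of the second probe ended, at -0.99 (adjusted p 0.0624) and -0.96 (adjusted p 0.0772).

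Both Nr4a3 probes were at or near background in both lines, so they cannot show whether K-line and N-line are alike. The readings differed by 0.07 in the brighter probe (interval -0.21 to 0.35, adjusted p 0.732) and by 0.19 in the second (interval -0.14 to 0.52, adjusted p 0.381). The K-line and N-line differences share the control arrays, so a high control reading would move both the same way. The 3 control readings spanned 5.93 to 6.01 in the brighter probe and 5.42 to 6.10 in the second.

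**Figure D3:**
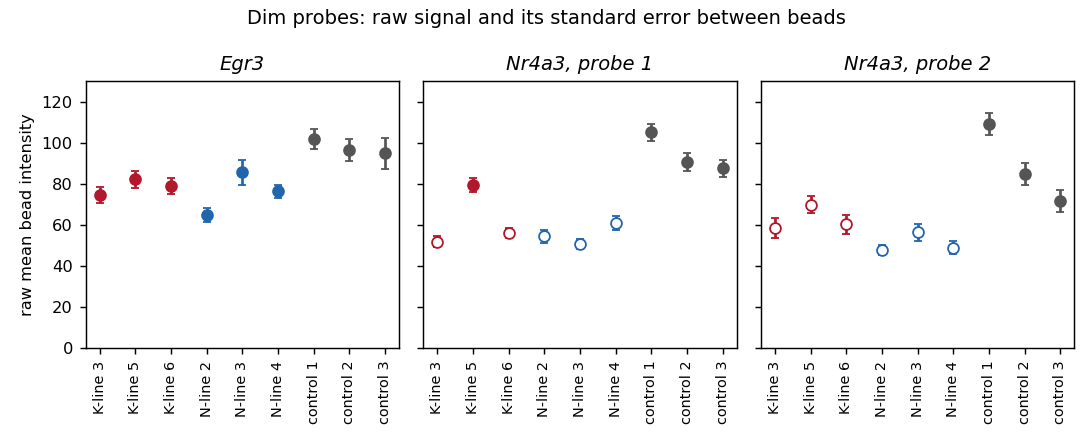
Raw mean bead intensity of the Egr3 probe and of both Nr4a3 probes on each of the 9 arrays, with the bead-to-bead standard error, before any correction, and open points below background. Control arrays read 87.5 to 105.0 on the brighter Nr4a3 probe, above every K-line (51.6 to 79.4) and N-line array (50.6 to 60.8).

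The array also measures some relatives of the 5 factors. Of 18 other AP-1 subunits 5 were on the array and 4 were tested. For K-line limma called 1 of the 4 against control and 1 against N-line, where 24.3% and 24.2% of all tested probes passed. Mafg, a small MAF protein that pairs with the stress factor NRF2, rose in K-line by 0.43 against control (SE 0.09, adjusted p 0.00573) and by 0.74 against N-line (adjusted p 2.66e-04). In N-line against control Mafg was -0.31 (interval -0.50 to -0.11), which did not pass (adjusted p 0.157). Maf (0.41), Atf7 (0.33) and Atf2 (0.21) did not pass in K-line against control. The median over the 4 was 0.37 there, beside -0.01 over all probes. Fos, Jun and Atf3 were not among the tested named probes, so no values are given for them.

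Of 5 further EGR, NR4A and NAB genes 4 were on the array and 3 were tested. In K-line against control, where 24.3% of all tested probes passed, limma called 0 of the 3, with 1 at an unadjusted p under 0.05. Nr4a2, the orphan receptor NURR1, was -0.28 in K-line against control (adjusted p 0.0880) and 0.14 in N-line (adjusted p 0.713). It fell in K-line against N-line by 0.42 (SE 0.11, adjusted p 0.0189). The corepressors Nab1 and Nab2, which EGR proteins induce and are restrained by, were 0.20 and 0.15 in K-line against control, with adjusted p-values of 0.199 and 0.259.

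Other immediate early genes gave 5 rises and 1 fall among 14 tested in K-line against control, from 60 listed and 19 on the array, where 12.0% of all tested probes were higher and 12.4% lower. Errfi1, a feedback inhibitor of the EGF receptor, rose by 1.22 (adjusted p 1.36e-04), and Ccn1, a secreted matrix protein, by 1.12 (adjusted p 0.00113). Cebpb, a leucine zipper factor of inflammation and metabolism, rose by 0.87 (adjusted p 4.01e-04), the antiproliferative Btg1 by 0.77 (adjusted p 0.0112) and the zinc finger factor Klf6 by 0.38 (adjusted p 0.0344). Rgs2, which limits signalling by Gq-coupled receptors, fell by 1.14 (adjusted p 4.56e-04). The median over the 14 was 0.24, beside -0.01 over all probes. Zfp36l1 was 0.15 in its brightest probe, which did not pass, and 0.57 in another, which did (adjusted p 0.0345).

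The same 14 genes gave 6 rises and 1 fall in K-line against N-line, where 12.1% of all tested probes were higher and 12.2% lower. Cebpb (1.32), Ccn1 (1.25), Errfi1 (1.24) and Klf6 (0.39) rose, as did Rnd3 (0.67), a small GTPase that opposes RhoA, and Sgk1 (0.58), a hormone-induced kinase, and Rgs2 fell by 0.93. In N-line against control, where 0.929% of all tested probes passed, limma called 0 of the 14. Of the 14 genes 2 had an unadjusted p under 0.05 in N-line, and the median was -0.01. Cebpb had the larger of these differences, at -0.45 with an adjusted p of 0.100.

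Of 34 kinases and factors that act upstream of immediate early genes 19 were on the array and 13 were tested. In K-line against control 4 rose and 1 fell, where 12.0% of all tested probes were higher and 12.4% lower. Those that rose included Creb1 (0.53, adjusted p 0.00200), the factor that binds cAMP response elements, and Mef2a (0.39, adjusted p 0.0382), a muscle transcription factor. The GTPases Nras (0.43, adjusted p 0.0265) and Hras (0.31, adjusted p 0.0245) rose too. Against N-line Creb1 (0.46), Mef2a (0.45) and Nras (0.40) were among the genes that rose, and the ribosomal S6 kinase gene Rps6ka2 fell by 0.35. In N-line against control, where 0.929% of all tested probes passed, limma called 0 of the 13, with 1 at an unadjusted p under 0.05. The medians were 0.24, 0.03 and 0.24 in K-line against control, N-line against control and K-line against N-line.

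Genes known as AP-1 targets were measured in small number, with 5 tested of 17 listed and 6 on the array. In K-line against control 3 of the 5 were called higher and 1 lower, where 12.0% of all tested probes were higher and 12.4% lower. Spp1, the secreted phosphoprotein osteopontin, was not above background on any control array and rose at least 91.7-fold in K-line (log2 difference 6.96, adjusted p 3.50e-08) and at least 3.89-fold in N-line (2.40, adjusted p 0.00161). Mmp12, the macrophage elastase, read at least 3.82-fold higher in K-line (2.39, adjusted p 5.97e-04). It was above background on the 3 K-line arrays alone, and these let it into the test. It therefore had to read higher in K-line than in either other group, and its p-values are no support for a rise. The monocyte attractant Ccl2 rose by 1.96 (adjusted p 2.15e-05). The cyclin gene Ccnd1 fell by 0.47 in its brightest probe (adjusted p 0.0477), while its other probes, at -0.29 and -0.08, did not pass. Mt1, a metal-binding protein, did not pass in K-line (0.18, adjusted p 0.418) and fell by 1.25 in N-line (adjusted p 0.00459). Against N-line, K-line was higher in Spp1 (4.56), Mmp12 (2.18, at least 3.95-fold), Ccl2 (1.83) and Mt1 (1.43), with 0 lower. Over all tested probes 12.1% were higher and 12.2% lower in that comparison.

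**Figure D4:**
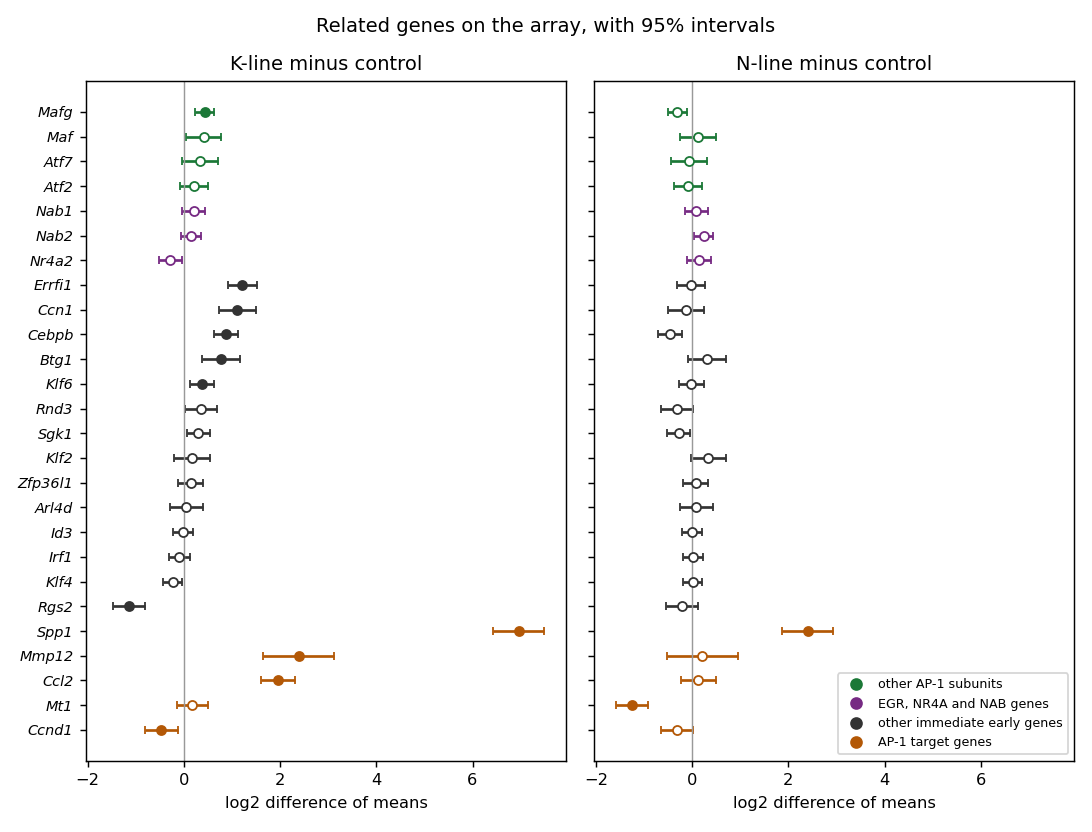
Log2 difference of means with 95% intervals for the tested AP-1, EGR, NR4A, NAB, other immediate early and AP-1 target genes, in K-line minus control and N-line minus control, with filled points at an adjusted p under 0.05. Spp1 lies farthest out in both panels (6.96 and 2.40), and Rgs2 (-1.14) is the largest K-line fall.

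Leukocyte markers were higher on the arrays where Egr2 and Junb were. Of 19 macrophage and leukocyte markers 10 were on the array and 8 were tested. All 8 rose in K-line against control, where 12.0% of all tested probes were higher. Their median was 1.51, and among them were the lysozyme gene Lyz2 (2.89) and the lysosomal protein Cd68 (1.85). Their summed linear level was 5045, 8846 and 7730 on K-line arrays 3, 5 and 6, against 1919 to 2019 in N-line and 1788 to 1985 in control, and Ptprc was below background on all 3 control arrays. K-line array 5 was highest and array 3 lowest in both this sum and Egr2, while Junb was highest on K-line array 6. In N-line, where 0.929% of all tested probes passed, 0 of the 8 was called by limma, and 0 had an unadjusted p under 0.05. The part of these cells in the Egr2 and Junb differences was not tested. In RNA of mixed heart cells a higher number of cells of a type and more RNA per cell cannot be told apart.

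Markers of other cell types were measured on the same arrays, where 12.0% of all tested probes were higher and 12.4% lower in K-line against control. Pmp22, the tested marker of Schwann cells, in which Egr2 is best known, was -0.07 in K-line against control and rose by 0.29 in K-line against N-line (adjusted p 0.0299). Of 6 endothelial markers 2 fell and 0 rose in K-line, with summed levels of 17192 to 18269 in K-line, 20183 to 20451 in N-line and 20218 to 21256 in control. Cd3e, the tested T cell marker, was 0.06 in K-line against control. Acta2 of smooth muscle fell by 0.78. Of 7 fibroblast markers 1 rose and 1 fell, with sums of 38244 to 46574 in K-line and 38048 to 40056 in control.

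The genes with the nearest profile to each factor were ranked by the root mean square difference of log2 values over the 9 arrays, each profile centred on its own mean. Nearest to Egr2 were Clec7a (0.252) and Clec4n (0.255), which encode myeloid C-type lectins, and Ccl2 (0.303), where Egr2 itself varied by 1.09 around its mean. Nearest to Junb, which varied by 0.712, were the autophagy receptor Sqstm1 (0.140) and the complement genes C1qb (0.155) and C1qa (0.166). Clec7a rose in K-line against control by 2.34 and C1qb by 1.53, while in N-line they were 0.35 (adjusted p 0.370) and -0.07 (adjusted p 0.906).

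Among the nearest profiles to the other 3 factors were genes that changed in the same direction in both lines. Fosl2, which varied by 0.244, lay nearest to Plcl2 (0.106), Snapc4 (0.114) and the adhesion molecule Vcam1 (0.118), and Vcam1 rose by 0.70 in K-line (adjusted p 0.00105) and by 0.64 in N-line (adjusted p 0.0206). Egr3, which varied by 0.333, lay nearest to Cdc37l1 (0.143), Mboat1 (0.165) and Rnf34 (0.183), and Cdc37l1 fell by 0.55 in K-line (adjusted p 0.00183) and by 0.55 in N-line (adjusted p 0.0208). Nr4a3, which varied by 0.524, lay nearest to Rhobtb1 (0.146), Lin7a (0.182) and Dct (0.192), and Rhobtb1 fell by 0.84 in K-line (adjusted p 0.00136) and by 0.94 in N-line (adjusted p 0.0104). The likeness is over 9 arrays that share their groups, and says nothing of shared control.

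**Figure D5:**
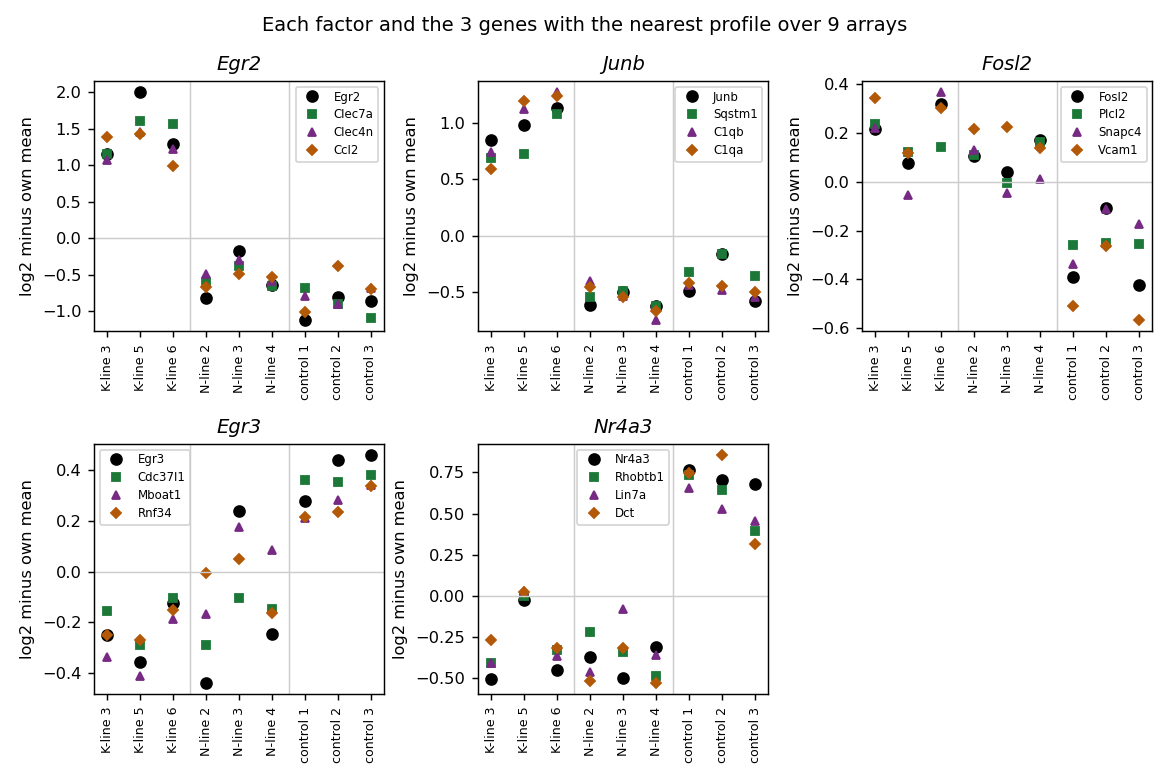
Log2 intensity minus its own mean on each of the 9 arrays, for each factor and the 3 named genes with the nearest profile. Egr2 and Junb follow K-line against the rest, while Nr4a3 follows control against both transgenic lines. Egr3 is highest in control, with N-line array 3 (0.24) close to control array 1 (0.28).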

How the data were processed

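Heart RNA of 9 samples was hybridised to Illumina Mouse-6 v1.1 arrays of beads. Per the file headers, the deposited intensity of each probe is the mean over its beads, exported from BeadStudio 2.3.47 without normalization. The deposited detection score is a fraction that is higher for brighter probes, and 1 minus it served as the detection p-value. The authors' value table, an intensity on a linear scale with a normalization not given in the sources used here, was an alternative. Its columns had a median of 9.28 to 9.29 on K-line arrays and 7.55 to 7.57 on all others. Their upper quartiles were 92.8 to 92.9 and 73.6 to 73.7, so K-line arrays have a scale of their own there. Intensities were background corrected (normexp from detection p-values, offset 16), quantile normalized and log2 transformed with limma 3.58.1 in R 4.3.3. Probes with a detection p under 0.05 on at least 3 arrays (19692) were fitted in a single model of 3 group means (lmFit, eBayes), with Benjamini-Hochberg adjustment over all of them, checked on simulated data. A gene's brightest probe stands for it.

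Codes with 1 or 2 leading zeros were read as mouse gene numbers, and 81.1% of 9995 such numbers are in RefSeq; this reading is inferred. The members and lists were chosen with earlier results of these data known. All members, the called genes of each list (at most 8 by size) and the 3 nearest profiles are named. The labels do not state 1 animal per array, so the spread behind the p-values is between arrays and may be technical, and the number of arrays limits the precision. The most raw values shared by a pair of arrays was 327 of 46657. Transgene levels and some listed genes are not reported here.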

Additional observations from a re-analysis of the deposited data

Results flagged for a closer look

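The K-line and N-line arrays differed in Egr2 and Junb. The K-line difference from control exceeded the N-line difference by 2.03 on the log2 scale for Egr2 (2.41 in K-line and 0.38 in N-line, adjusted p 1.24e-04) and by 1.56 for Junb (1.39 in K-line and -0.17 in N-line, adjusted p 1.46e-05), tested as K-line against N-line in the limma model. K-line arrays have a slide of their own, and they alone show Xist RNA, lack Y-linked RNA and have little Myl7 RNA, so slide, these differences and line cannot be told apart in either value. Groups of 3 arrays are too small for a test of single arrays.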

How the results depend on the processing

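Over the 5 genes and 3 comparisons, 262 of 272 alternative values kept their direction and their side of the threshold. The K-line and N-line differences from control kept their sign in every alternative run for each of the 5 genes. The labels' array numbers pair few samples and the deviations of same-numbered arrays correlated at -0.052 to 0.224, so they share only a number. With the array number as a replicate block, which leaves 1 residual degree of freedom, 554 probes passed in K-line against control (4795 without it), 16 in N-line against control (183) and 441 in K-line against N-line (4774). Under the replicate block the calls ended for Egr3 (-0.87, adjusted p 0.114) and Fosl2 (0.58, adjusted p 0.114) in K-line against control, for Nr4a3 in N-line against control (-1.13, adjusted p 0.0747, and -0.80 in its second probe, adjusted p 0.220), for the second Nr4a3 probe in K-line (-0.64, adjusted p 0.159) and for Egr2 in K-line against N-line (1.50, adjusted p 0.0540), and Nr4a3 in K-line against N-line turned to -0.032. The authors' value table has K-line arrays on a scale of their own, so its K-line differences are not like the others. There Egr3 in K-line against control was -0.62 (adjusted p 0.0801) and Egr3 in K-line against N-line turned to 0.19. Nr4a3 was -1.35 in K-line and -1.60 in N-line against control.

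Probes that passed in N-line against control numbered 109 with median scaling, 314 with only the groups compared in the fit, 354 with their slide normalized alone and 308 with a trended and robust fit. Leaving out 1 array at a time gave 25 to 302 in N-line against control, the lowest without N-line array 4 and the highest without K-line array 5, 3313 to 4600 in K-line against control and 3036 to 4620 in K-line against N-line, the lowest without N-line array 2. In the same way Egr3 ranged from -0.74 to -0.40 in N-line against control and, without a call, from -0.24 to 0.10 in K-line against N-line, and Nr4a3 from -0.081 to 0.16 in K-line against N-line, turning negative without K-line array 5. The share of passing probes that were higher in K-line than in control was 49.2%, against 70.5% with median scaling and 84.7% in the authors' value table (median of all probes -0.01, 0.09 and 0.23). Against N-line it was 49.8%, 76.6% and 85.9%. The stricter filter (detection p under 0.01 on at least 6 arrays) left no value for Egr3 and Nr4a3, and the second Nr4a3 probe was untested when a control array was left out. Signal near background limits Egr3 and Nr4a3.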
